A study of Mus musculus with 4 samples.

Results

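The cell cycle brakes and senescence markers described here are 9 genes of the 24421 gene symbols counted in J558 allograft tumours. They were taken by symbol: the 3 CIP/KIP inhibitors of cyclin-dependent kinases (Cdkn1a, Cdkn1b, Cdkn1c), the 4 INK4 inhibitors (Cdkn2a, Cdkn2b, Cdkn2c, Cdkn2d), Lmnb1 for lamin B1 and Glb1 for lysosomal beta-galactosidase. RNA came from whole flank tumours of female BALB/c mice that had been inoculated with J558, a mouse plasmacytoma line, and the series design calls the 2 samples of a group independent. Mice of the vehicle group (Vehicle-1, Vehicle-2) were dosed by mouth with 0.5% methylcellulose, and those of the other group (TAK-931-1, TAK-931-2) received TAK-931 at 60 mg/kg once a day, both for 6 days. TAK-931 inhibits CDC7, a kinase that fires replication origins. As a model, the tumour is a mixture of J558 cells and host tissue from a mouse with an intact immune system.

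Cyclin-dependent kinases drive the cell from one phase of the cycle to the next, and the inhibitors hold them back in different ways. INK4 proteins bind CDK4 and CDK6 and keep D cyclins away, whereas CIP/KIP proteins bind assembled cyclin-CDK complexes, those of CDK2 above all. Cells that leave the cycle for good in senescence are usually recognised by high p21 (Cdkn1a) or p16 (Cdkn2a), loss of lamin B1 from the nuclear envelope, and beta-galactosidase activity from an enlarged lysosome compartment. The study assessed senescence in TAK-931-treated cultured cells by granularity, beta-galactosidase activity and inflammatory genes, and the comparison here asks how the transcripts of these markers stood in treated tumours.

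Libraries held between 16487902 and 19589339 counts, and 13669 genes passed the filter on low counts. The TAK-931-treated tumours differed from each other far more than the vehicle-treated tumours did: the median gene differed by 0.70 log2 units between the treated pair and by 0.16 between Vehicle-1 and Vehicle-2. Cdc7, the gene of the drug target, had 23.0 and 21.4 counts per 1000000 of the scaled library total (CPM) in the vehicle-treated tumours and 21.3 and 21.2 CPM in the treated ones. Mcm2, a subunit of the helicase that CDC7 phosphorylates, had 203 and 189 CPM against 138 and 180.4 CPM. For 2 tumours against 2, the smallest p of a two-sided exact permutation test is 0.333. The quasi-likelihood test of edgeR, fitted across all genes, called 0 of 13669 (0%) at an adjusted p under 0.05, adjustment being by Benjamini-Hochberg over all of them. At an unadjusted p under 0.05 it listed 2475 genes (18.1%), and DESeq2 called 1411 (10.3%). Among the 9 genes, 8 passed the filter and were tested. Of these, 0 passed an adjusted p of 0.05 in edgeR, 2 had an unadjusted p under 0.05 (Cdkn1a and Lmnb1), and 1 (Cdkn1a) was called by DESeq2. Counting reads in bulk tissue cannot separate fewer cells of a type from less RNA per cell.

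Per length of transcript, Cdkn2a was the most abundant of the 9 genes in vehicle-treated tumours. Mean RPKM (CPM per kilobase of exon) in the vehicle group was 167 ± 0.848 for Cdkn2a, 119.9 ± 9.33 for Lmnb1, 40.6 ± 3.46 for Cdkn1b, 34.3 ± 1.40 for Glb1 and 22.8 ± 1.55 for Cdkn2d (SD, n = 2). Below these stood Cdkn2c at 14.3 ± 0.221, Cdkn1a at 9.17 ± 0.846, Cdkn2b at 7.03 ± 1.19 and Cdkn1c at 0.0922 ± 0.0441 RPKM. Every neighbouring pair in this order was separated, since the ranges of the vehicle-treated tumours did not overlap. Cdkn1a, the seventh in the vehicle group, was the third in the TAK-931 group, at 44.0 ± 30.1 RPKM. There its range of 22.7 to 65.2 RPKM overlapped that of Glb1, and the ranges of Cdkn2a and Lmnb1, of Glb1 and Cdkn1b, of Cdkn2d and Cdkn2c and of Cdkn2b and Cdkn1c overlapped as well.

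**Figure D1:**
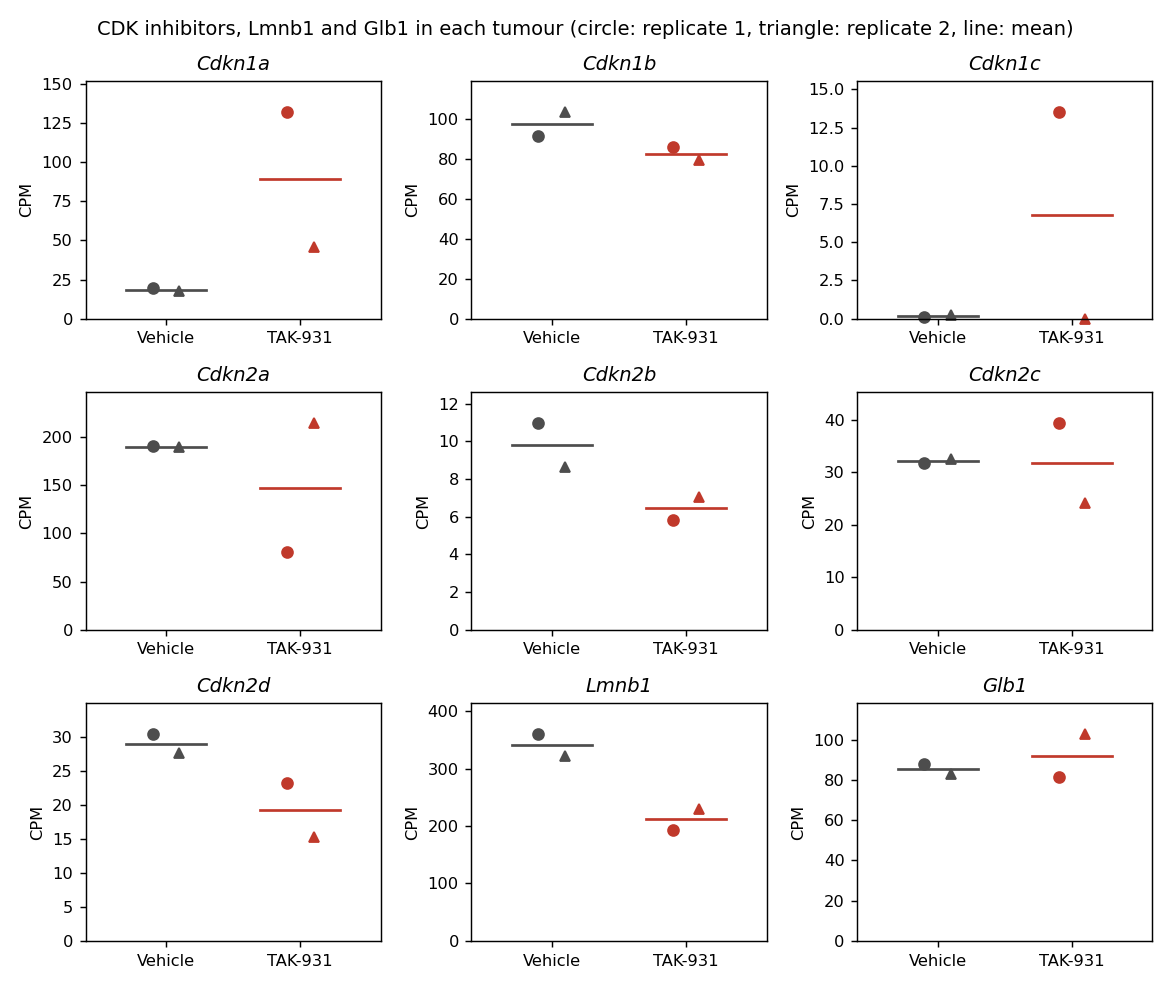
CPM (vertical axes, each from 0) of the 9 genes in the 2 Vehicle and 2 TAK-931 tumours; circles are replicate 1, triangles are replicate 2 and lines are group means. Cdkn1a lay above both vehicle-treated tumours in each treated tumour, Cdkn1b, Cdkn2b, Cdkn2d and Lmnb1 lay below, and Cdkn1c was high in TAK-931-1 alone.

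Cdkn1a, which encodes p21, had the largest difference of the tested genes in the group. It lies on chromosome 17 (29090986 to 29100722, mm10, plus strand). It had 334 and 290 counts in Vehicle-1 and Vehicle-2, whereas TAK-931-1 had 2513 and TAK-931-2 had 788. Scaled, these were 19.8 and 17.4 CPM against 132 and 45.9 CPM. Both treated tumours were above both vehicle-treated tumours, by 7.11-fold and 2.47-fold the vehicle mean, and the treated tumours differed from each other by 2.88-fold. The log2 fold change by edgeR was 2.26 (SE 0.58, 95% interval 0.71 to 3.81), with an adjusted p of 0.275, and DESeq2 gave 2.31 with an adjusted p of 0.00271. It ranked at percentile 90.4 of the log2 fold changes of all tested genes. Leaving out TAK-931-1 gave 1.30, and leaving out TAK-931-2 gave 2.81.

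RefSeq lists 2 starts for Cdkn1a, 2790 bases apart, and the count per gene sums transcripts from both. The sequence before each start is shown because Cdkn1a carried the largest difference and is the textbook transcriptional target of p53, to which replication stress signals. Windows are the 250 bases before the start, 5′ to 3′ on the gene's strand, from RefSeq on GRCm38.p6 (C57BL/6J, whereas these mice were BALB/c). Capitals mark a p53 element in the first window and GC boxes (GGGCGG) in the second.
Cdkn1a, first start, chr17:29090729-29090978: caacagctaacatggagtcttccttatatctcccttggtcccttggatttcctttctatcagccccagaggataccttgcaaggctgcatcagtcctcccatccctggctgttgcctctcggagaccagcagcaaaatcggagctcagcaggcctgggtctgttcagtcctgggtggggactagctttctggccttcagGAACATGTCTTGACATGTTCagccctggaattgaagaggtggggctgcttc
Cdkn1a, second start, chr17:29093519-29093768: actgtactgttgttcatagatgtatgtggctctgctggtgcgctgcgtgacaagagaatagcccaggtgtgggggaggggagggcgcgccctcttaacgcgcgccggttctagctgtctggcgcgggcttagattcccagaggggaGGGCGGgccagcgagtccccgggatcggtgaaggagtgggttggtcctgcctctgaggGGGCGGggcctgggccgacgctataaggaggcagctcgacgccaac
The element is 20 bases long (chromosome 17, 29090928 to 29090947), 51 to 32 bases before the first start, and has 1 mismatch to a pair of p53 half-sites. The search was set after the windows had been seen, so its counts only describe this site. It took half-sites with 0 bases between them, exact central bases and at most 1 mismatch. Such an element was present in 15 of 32851 RefSeq windows of the same length (0.0457%). It was absent from the other 9 windows searched for these genes. Those windows cover 7 of the 9 genes, without Cdkn1c and Lmnb1. GC boxes stood at 104 to 99 and 46 to 41 bases before the second start, and 32.7% of all windows hold at least 1 on either strand. The other motifs searched, on both strands, were TATAAA (12.4% of windows), CCAAT (33.8%), TTTGAA (16%), CACGTG (6.02%), TTGGCGC (1.97%), TTCCCGC (3.82%) and TGAGTCA (4.46%), of which neither Cdkn1a window held any. A match in letters is a description and does not show that a factor was bound.

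Cdkn1b, which encodes p27 (chromosome 6, 134920401 to 134925525), was close to level. Its counts were 1547 and 1727 in the vehicle-treated tumours, 1633 in TAK-931-1 and 1363 in TAK-931-2. These corresponded to 91.7 and 103 CPM against 85.9 and 79.5 CPM, so that both treated tumours were slightly below both vehicle-treated ones. The log2 fold change was −0.24 (SE 0.21, 95% interval −0.79 to 0.31; adjusted p 0.508, edgeR), an interval that leaves room for a decrease to 0.578-fold or an increase to 1.24-fold.

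Cdkn1c, which encodes p57 and is expressed from the maternal allele (chromosome 7, 143458339 to 143461050), was a gene of a single tumour. It had 2 and 4 counts in the vehicle-treated tumours, 257 in TAK-931-1 and 0 in TAK-931-2. TAK-931-1 held 97.7% of all its counts, at 13.5 CPM, and the other treated tumour had none. Its ratio in TAK-931-1 to the pooled vehicle libraries was 75.6 (95% exact interval for counting error 34.3 to 208). Taking 3 counts as the limit that a count of 0 allows, which is 0.175 CPM in TAK-931-2, Cdkn1c in TAK-931-1 was 77.3-fold that limit. This value takes no account of error in the 257 counts and would be lower if mates were counted separately. It did not pass the filter, because only 1 library was above the minimum, and is not among the 8 tested genes. With no filter and all 4 libraries, the edgeR fit of Cdkn1c gave a log2 fold change of 5.14 (SE 2.40) and an adjusted p of 0.351.

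The INK4 genes followed separate patterns. Cdkn2a (chromosome 4, 89274473 to 89294619, minus strand) had 3214 and 3157 counts in the vehicle-treated tumours, 1526 in TAK-931-1 and 3677 in TAK-931-2. Scaled, it stood at 191 and 189 CPM, which are nearly identical, against 80.3 and 214 CPM, which lie on opposite sides of them. The log2 fold change of −0.37 (SE 0.52, 95% interval −1.76 to 1.03) had an adjusted p of 0.683 by edgeR. Without TAK-931-1 it was 0.17, and without TAK-931-2 it was −1.26, so its direction depended on which treated tumour was kept.

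Cdkn2a has a start for each of its products, p19ARF, which restrains MDM2, and p16INK4a, and their transcripts share the exons that follow the first. The table of counts per gene therefore cannot say which product the reads came from. Both windows are shown because this was the most abundant gene of the group and its count adds the output of unlike promoters. Capitals mark GC boxes and an E2F core (TTCCCGC, in 3.82% of all windows on either strand).
Cdkn2a, p19ARF start, chr4:89294620-89294869: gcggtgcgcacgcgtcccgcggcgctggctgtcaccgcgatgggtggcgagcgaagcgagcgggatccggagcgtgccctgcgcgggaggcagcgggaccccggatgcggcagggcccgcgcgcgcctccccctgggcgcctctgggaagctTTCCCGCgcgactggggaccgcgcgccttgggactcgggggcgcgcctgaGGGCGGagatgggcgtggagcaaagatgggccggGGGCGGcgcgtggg
Cdkn2a, p16INK4a start, chr4:89282193-89282442: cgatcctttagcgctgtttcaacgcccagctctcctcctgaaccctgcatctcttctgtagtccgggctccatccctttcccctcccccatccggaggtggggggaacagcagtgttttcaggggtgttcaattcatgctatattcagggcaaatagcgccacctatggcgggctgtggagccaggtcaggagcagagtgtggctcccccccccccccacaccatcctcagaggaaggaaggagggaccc
The p19ARF window is 78.4% G or C and holds 2 GC boxes and 1 E2F core. In the p16INK4a window, which is 60% G or C, none of the 9 motifs searched was found.

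Cdkn2b, which encodes p15 and lies 11669 bases from Cdkn2a (chromosome 4, 89306289 to 89311032), was the least abundant INK4 gene per length. It had 185 and 144 counts in the vehicle-treated tumours, and 111 and 121 in TAK-931-1 and TAK-931-2. At 10.97 and 8.63 CPM against 5.84 and 7.06 CPM, both treated tumours were lower than both vehicle-treated tumours. The log2 fold change was −0.60 (SE 0.43, 95% interval −1.75 to 0.54), with an adjusted p of 0.431 by edgeR. Despite their common locus, Cdkn2a and Cdkn2b stood in different order: TAK-931-2 was the highest library for Cdkn2a and lay below both vehicle-treated tumours for Cdkn2b. For Cdkn2b this rests on 121 counts in TAK-931-2 against 144 in Vehicle-2, and the vehicle pair itself differed by 1.27-fold. Whether that gap exceeds counting error was not tested.

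Cdkn2c, which encodes p18 (chromosome 4, 109660876 to 109666756), had 538 and 544 counts in the vehicle-treated tumours, 749 in TAK-931-1 and 413 in TAK-931-2. It thus had 31.9 and 32.6 CPM against 39.4 and 24.1 CPM, with the treated tumours on either side of a close vehicle pair. The log2 fold change was −0.02 (SE 0.33, 95% interval −0.90 to 0.86; adjusted p 0.975, edgeR). It became −0.42 without TAK-931-1 and 0.27 without TAK-931-2, and its sign also depended on the scaling of the libraries.

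Cdkn2d, which encodes p19INK4d (chromosome 9, 21288464 to 21291209), had 512 and 460 counts in the vehicle-treated tumours, 442 in TAK-931-1 and 263 in TAK-931-2. These were 30.3 and 27.6 CPM against 23.2 and 15.3 CPM. Both treated tumours were lower, and the second treated tumour, at 0.530-fold the vehicle mean, was farther away than the first, at 0.803-fold. By edgeR, the log2 fold change was −0.58 (SE 0.32, 95% interval −1.45 to 0.28), with an adjusted p of 0.349 by edgeR, and it was −0.92 without TAK-931-1 and −0.34 without TAK-931-2.

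The make-up of the inhibitor transcripts was described by adding RPKM over the 7 inhibitor genes. The sum was 262 and 261 RPKM in the vehicle-treated tumours, 219 in TAK-931-1 and 272 in TAK-931-2. CIP/KIP genes made up 18.3% and 19.8% of it in the vehicle-treated tumours, 49.4% in TAK-931-1 and 20.5% in TAK-931-2. TAK-931-1 thus stood apart, whereas TAK-931-2 was near the vehicle pair. Cdkn1a alone accounted for 3.74% and 3.29% of the sum in the vehicle-treated tumours, 29.9% in TAK-931-1 and 8.33% in TAK-931-2. Cdkn2a accounted for 64.1%, 63.9%, 32.3% and 69.3%, with libraries in the same order. With 1 value a tumour and 2 tumours a group these shares have no test.

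**Figure D2:**
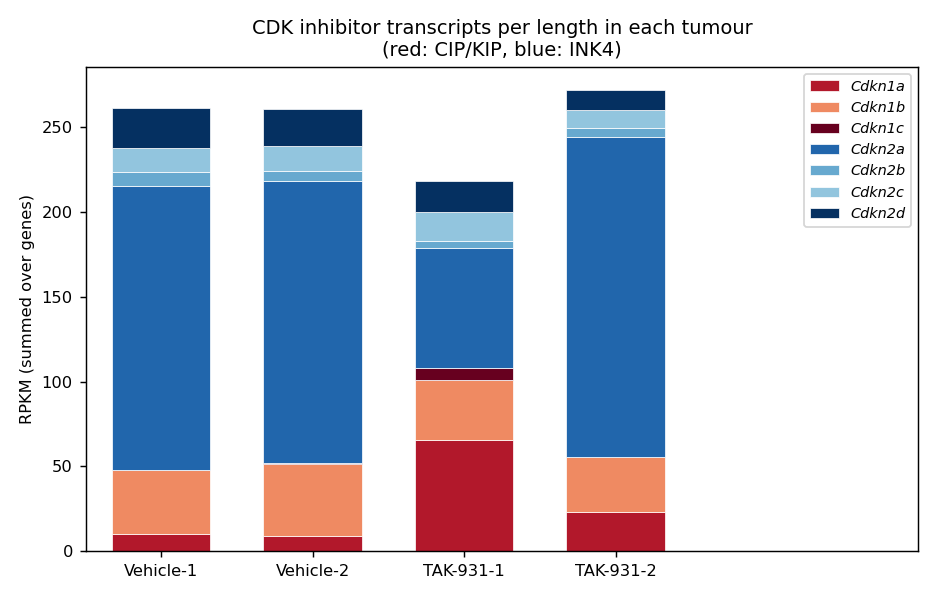
Stacked bars of RPKM (vertical axis, from 0) for the 7 CDK inhibitor genes in each of the 4 tumours, CIP/KIP genes in red shades and INK4 genes in blue shades. Cdkn2a formed 64.1%, 63.9% and 69.3% of the bar in Vehicle-1, Vehicle-2 and TAK-931-2, and 32.3% in TAK-931-1, where Cdkn1a formed 29.9%.

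Lmnb1, whose product lines the inner face of the nuclear envelope, was lower in both treated tumours by similar amounts. On chromosome 18, it had 6069 and 5378 counts in the vehicle-treated tumours, 3659 in TAK-931-1 and 3953 in TAK-931-2, the deepest counts of the 9 genes. Scaled, it had 359.7 and 322 CPM against 192 and 230.5 CPM. The groups did not overlap, and the treated tumours were at 0.56-fold and 0.68-fold the vehicle mean. Its fitted log2 fold change was −0.69 (SE 0.24, 95% interval −1.34 to −0.04), with an unadjusted p by edgeR of 0.0417 and an adjusted p of 0.275, and DESeq2 gave −0.64 with an adjusted p of 0.196. The unadjusted p of Lmnb1 depended on the setting: in edgeR it was 0.0503 with median-of-ratios size factors, 0.067 with library size only and 0.13 with a replicate block. Its log2 fold change was −0.57 without TAK-931-1 and −0.85 without TAK-931-2.

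Other genes of the lamina and the envelope were read beside it from a list of 11. All 11 were tested, 7 had a negative and 4 a positive log2 fold change, none passed an adjusted p of 0.05, and the median log2 fold change was −0.28 against 0.02 for all 13669 genes. In 7 of the 11 both treated tumours were below both vehicle-treated ones, as in 32.8% of all tested genes. Lmnb2, the other B-type lamin, had 63.8 and 69.0 CPM in the vehicle-treated tumours and 37.0 and 47.3 CPM in the treated ones (log2 fold change −0.65, SE 0.24). Lbr, the lamin B receptor, had 237 and 233 CPM against 114 and 131 CPM (−0.94, SE 0.22). Lmna, the gene of lamins A and C, did not share this: at 49.0 and 55.4 CPM against 117 (TAK-931-1) and 50.3 CPM (TAK-931-2), its groups overlapped. Syne2, a nesprin that links the nucleus to the cytoskeleton, had 16.4 and 15.0 CPM against 20.3 and 32.9 CPM.

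Glb1, the source of senescence-associated beta-galactosidase activity (chromosome 9, 114401078 to 114474379), overlapped between the groups. It had 1479 and 1381 counts in the vehicle-treated tumours, 1549 in TAK-931-1 and 1760 in TAK-931-2. At 87.7 and 82.7 CPM against 81.5 and 103 CPM, TAK-931-1 was just below the vehicle pair and TAK-931-2 above it. By edgeR, the log2 fold change was 0.11 (SE 0.23, 95% interval −0.49 to 0.72; adjusted p 0.778, edgeR), so the data allow values between 0.712-fold and 1.64-fold. It was 0.27 without TAK-931-1 and −0.09 without TAK-931-2. Glb1 shares 175 exonic bases with Tmppe on the same strand, and how reads over them were assigned is not given in the sources used here. Tmppe had 29.0 and 27.2 CPM in the vehicle-treated tumours and 41.5 and 39.2 CPM in the treated ones. No other gene of the 9 shared exonic bases with another gene of the tables.

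Other lysosomal enzymes were read from a list. Of 17 glycosidases and their partners, all tested, 15 had a positive and 2 a negative log2 fold change and none passed an adjusted p of 0.05. Their median log2 fold change was 0.62, and against the vehicle mean the median log2 ratio stood at 1.06 for the first treated tumour and at 0.26 for the other. Hexa, a subunit of beta-hexosaminidase, had 39.4 and 43.5 CPM in the vehicle-treated tumours, 538 in TAK-931-1 and 91.4 in TAK-931-2. Ctsa, the protective protein that holds beta-galactosidase and the sialidase Neu1 in a complex, had 205 and 203 CPM against 834 and 295 CPM. Gaa, the acid alpha-glucosidase that degrades glycogen, ran the other way, at 407 and 398 CPM against 211 and 394.6 CPM (log2 fold change −0.41, SE 0.37). Neu1 itself had 47.2 and 44.5 CPM against 63.1 and 42.7 CPM, and Galc, the other lysosomal beta-galactosidase, had 32.6 and 37.3 CPM against 57.2 and 35.0 CPM, so both overlapped.

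**Figure D3:**
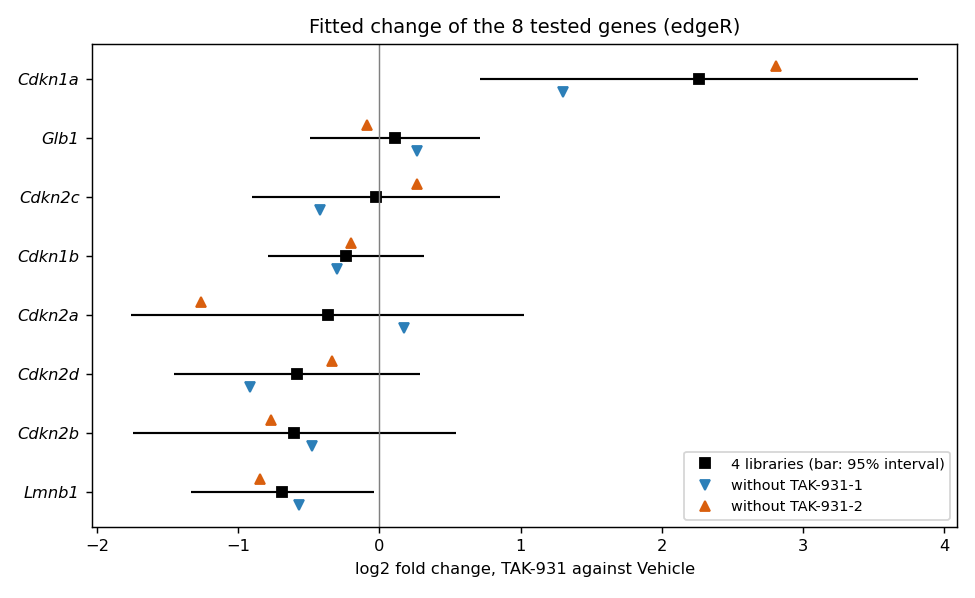
Log2 fold change of TAK-931 against Vehicle by edgeR (horizontal axis) for the 8 tested genes; squares and bars are the value and 95% interval with all 4 libraries, and triangles are the values without TAK-931-1 or without TAK-931-2. The intervals of Cdkn1a (0.71 to 3.81) and Lmnb1 (−1.34 to −0.04) did not include 0 in this fit, and the sign of Cdkn2a, Cdkn2c and Glb1 depended on the treated tumour left out.

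Counted over the 8 tested genes, 1 (Cdkn1a) was higher in both treated tumours than in both vehicle-treated tumours, where 29.9% of all tested genes were, and 4 (Cdkn1b, Cdkn2b, Cdkn2d, Lmnb1) were lower in both, where 32.8% of all tested genes were. The remaining 3 (Cdkn2a, Cdkn2c, Glb1) overlapped. TAK-931-1 was above TAK-931-2 in 4 of the 8 and below it in 4. The fits that leave out a treated tumour call many genes, because the spread then comes from the close vehicle pair and the lone treated tumour is taken to vary as little. Without TAK-931-1, edgeR called Cdkn1a, Cdkn2d and Lmnb1 at adjusted p of 0.0011, 0.00794 and 0.00334, among 28.7% of all tested genes. Without TAK-931-2 it called Cdkn1a, Cdkn2a and Lmnb1, at adjusted p between 0.000155 and 0.00186, among 58.1% of all tested genes. Cdkn1c also passed the filter in that fit, through the 257 counts of TAK-931-1 alone, so its call there is not counted. Both fits use the same vehicle pair, so a gene called in each of them has not been tested on separate data.

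The kinases and cyclins on which the inhibitors act were read from a list. Of 12 CDK and cyclin genes, all tested, 8 had a negative and 4 a positive log2 fold change, none passed an adjusted p of 0.05, and the median was −0.38. Against the vehicle mean, their median log2 ratio stood at −0.81 for the first treated tumour and at −0.04 for the other. In 5 of the 12 both treated tumours were below both vehicle-treated ones (32.8% of all tested genes), and in 3 both were above (29.9%). Cdk4, a kinase that INK4 proteins bind, had 416 and 420 CPM in the vehicle-treated tumours and 228 and 327 CPM in the treated ones. Its close relative Cdk6 was scarce, at 0.474 and 0.240 CPM against 4.21 and 2.57 CPM, and was higher in both treated tumours. Cdk2 had 72.1 and 79.7 CPM against 44.7 and 70.6 CPM, and Cdk1, the mitotic kinase, had 137 and 145 CPM against 97.0 and 126 CPM. Ccna2, which encodes cyclin A2, had 170 and 169 CPM against 82.1 and 115 CPM. The D cyclins diverged: Ccnd1 had 16.4 and 15.8 CPM against 61.2 and 27.6 CPM, Ccnd3 had 55.1 and 56.7 CPM against 97.6 and 69.4 CPM, and Ccnd2, with the highest vehicle RPKM of them, had 353 and 314 CPM against 134 and 379 CPM. Ccne1, for cyclin E1, had 122 and 118 CPM against 52.3 and 104 CPM, and Ccne2, for cyclin E2, had 12.9 and 15.6 CPM against 5.84 and 13.8 CPM.

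Downstream of the kinases, 8 genes of the RB family and its E2F partners were tested, of which 6 had a negative and 2 a positive log2 fold change, with a median of −0.13 and none past an adjusted p of 0.05. Rb1, which blocks E2F until it is phosphorylated, had 44.8 and 52.2 CPM in the vehicle-treated tumours and 102 and 86.8 CPM in the treated ones (log2 fold change 0.96, SE 0.23). Rbl2, which encodes the quiescence-linked pocket protein p130, had 21.8 and 27.1 CPM against 131 (TAK-931-1) and 29.7 CPM (TAK-931-2). E2f1 had 63.4 and 64.0 CPM against 52.0 and 63.1 CPM. Tfdp1, the DNA-binding partner of E2F proteins, had 301 and 302 CPM against 167 and 278 CPM. Of 12 proliferation genes, 11 had a negative and 1 a positive log2 fold change, the median was −0.42, and in 8 both treated tumours were below both vehicle-treated ones (32.8% of all tested genes). Cdc20, an activator of the anaphase-promoting complex, had 345 and 330.0 CPM against 124 and 259.6 CPM. The positive value was that of Mki67, the gene of the Ki-67 antigen, with 760 and 613 CPM against 559 (TAK-931-1) and 1005 CPM (TAK-931-2), where it was the highest of the 4.

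Genes that set the level of the inhibitors were read from a list of 15 regulators, 6 with a positive and 9 with a negative log2 fold change, none past an adjusted p of 0.05, and with a median of −0.05. Trp53, the gene of p53, had 173 and 162 CPM in the vehicle-treated tumours and 97.6 and 140 CPM in the treated ones. Mdm2, its ubiquitin ligase and target, had 93.7 and 99.0 CPM against 120 and 130 CPM. Skp2, whose product marks p27 protein for destruction, had 33.0 and 37.3 CPM against 44.2 and 49.8 CPM, and p27 protein was not measured here. Bmi1, a Polycomb repressor of the Cdkn2a locus, had 128 and 135 CPM against 45.4 and 75.0 CPM. Smad3, which carries the TGF-beta signal that induces p15, had 9.84 and 12.3 CPM against 30.0 and 10.1 CPM, so its groups overlapped. Of 16 further p53 target genes, 10 had a positive and 6 a negative log2 fold change, with a median of 0.33 and none past an adjusted p of 0.05. Plk2, a kinase induced by p53, had 3.67 and 6.65 CPM against 39.7 and 10.2 CPM, on the side of Cdkn1a. Bbc3, which encodes the pro-death protein PUMA, was on the other side, at 72.9 and 66.6 CPM against 23.8 and 19.3 CPM (log2 fold change −1.69, SE 0.24).

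A list of 13 other transcripts used as senescence markers had 7 positive and 6 negative log2 fold changes, a median of 0.31 and none past an adjusted p of 0.05. Here the treated tumours diverged, with median log2 ratios of 0.84 (TAK-931-1) and −0.50 (TAK-931-2). Hmgb1 and Hmgb2, chromatin proteins that senescent cells lose from the nucleus, were both lower: Hmgb1 had 464 and 428 CPM in the vehicle-treated tumours and 233 and 256 CPM in the treated ones, and Hmgb2 had 495 and 450 CPM against 359 and 252 CPM. Bhlhe40, a transcriptional repressor raised in stress and in activated lymphocytes, had 7.05 and 8.75 CPM against 97.3 and 33.9 CPM (log2 fold change 3.05, SE 0.61).

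The libraries also differed in how much RNA of each cell type they held, and the values stand beside the genes above. For 8 plasma cell markers, which J558 expresses, the summed level was 9713 and 10281 CPM in the vehicle-treated tumours, 4793 in TAK-931-1 and 13637 in TAK-931-2, the same order as Cdkn2a except within the vehicle pair. That order is of the sum and not of every marker. In 3 of the 8 both treated tumours were below both vehicle-treated ones (32.8% of all tested genes). None of these 8 was at 0 in any library. The 7 T cell markers summed to 29.3 and 20.7 CPM against 1081 and 86.4 CPM, 9 monocyte and macrophage markers to 552 and 467 CPM against 8045 and 1443 CPM, and 8 fibroblast markers to 1883 and 2140 CPM against 14786 and 5103 CPM. Every marker of these 3 lists was at its highest in TAK-931-1, and none was at 0 in a library. This is also the order of Cdkn1a, with TAK-931-1 highest, then TAK-931-2. The 6 endothelial markers summed to 271 and 286 CPM against 867 and 277 CPM, and the 6 skeletal muscle markers to 87.7 and 88.4 CPM against 684 and 11.4 CPM, Myh1 being at 0 in 1 library or more. The 5 adipocyte markers summed to 45.0 and 67.7 CPM against 262 and 28.6 CPM, with Lep at 0 in both vehicle-treated tumours and Plin1 at 0 in 1 library or more. The 5 keratinocyte markers summed to 2.13 and 35.0 CPM against 18.5 and 2.16 CPM, with Krt5, Krt14, Krt15 and Trp63 each at 0 in 1 library or more. Endothelial, muscle and adipocyte sums were highest in TAK-931-1 and near or below the vehicle pair in TAK-931-2, as Cdkn1c was. The part of these cell types in the values of Cdkn1a, Cdkn1c, Cdkn2a and the lysosomal genes was not tested.

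**Figure D4:**
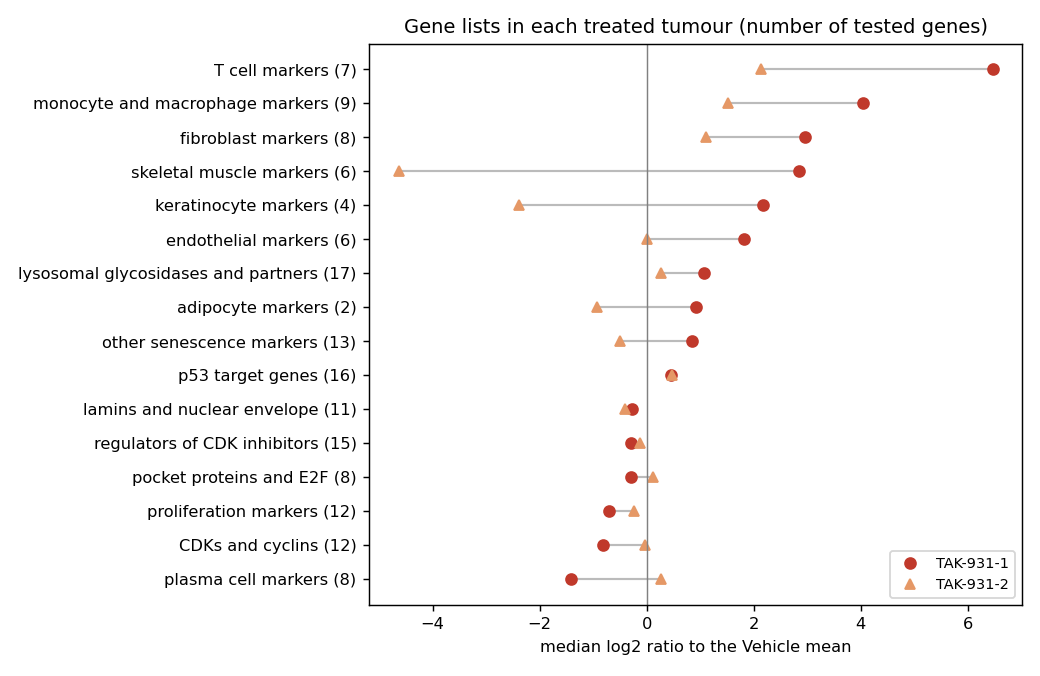
Median log2 ratio to the Vehicle mean (horizontal axis) of the tested genes of each list, with a circle for TAK-931-1 and a triangle for TAK-931-2; numbers in brackets are tested genes. T cell, macrophage and fibroblast markers were positive in both treated tumours, and p53 target genes were at 0.46 and 0.47.

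To see which genes followed each of the 8 tested members most closely (Cdkn1c, under 1 CPM in 3 libraries, was left out), log2 CPM were centred on the gene's mean over the 4 libraries and compared by root mean square difference among 9616 genes with a mean log2 CPM over 3. With 4 libraries this measure describes a shape of 4 points and nothing more. Cdkn1a was nearest to Fam49a (0.07), Shank3 (0.07) and Hspg2 (0.08), the last of which encodes perlecan of the basement membrane. Cdkn2a was nearest to Pnkd (0.02), Ube2j1 (0.02), a ubiquitin-conjugating enzyme of the endoplasmic reticulum, and Dnase1 (0.03). Lmnb1 was nearest to Mms22l (0.01), which acts in the recovery of stalled replication forks, and then to Mpst (0.02) and Cryz (0.03). Cdkn2b was nearest to Mfsd6 (0.02) and to the centromere genes Cenpp (0.03) and Itgb3bp (0.03), and Cdkn2d had Hmgb2 (0.04) as its second nearest after C1galt1c1 (0.03), followed by Fn3krp (0.05). Cdkn1b was nearest to Acbd5, Selk and Mrps12, Cdkn2c to Higd2a, Ndfip2 and Arf2, and Glb1 to D1Ertd622e, Ctif and Arhgap12, all within 0.03.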

How the data were processed

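RNA from 4 J558 allografts (2 per group) was sequenced, and the authors deposited 1 table per library of raw read counts per gene, with the summed exon length in bases as another numeric column. The submitters' processing notes name STAR 2.6.1c, featureCounts and mm10; the headers mark the alignments as unique. Annotation, strand and pair settings are not given in the sources used here. Odd values made up only 17.9% to 23.9% of small counts, so mates may have been counted separately; counting intervals and floors, which cover counting error only, may then be too narrow. Groups came from the sample titles. The series design calls the samples independent, and the study plots allografts by individual mouse and names Vehicle-1 and TAK-931-1 among them; p-values measure the spread between these samples.

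Genes were kept with filterByExpr (minimum count 10), scaled by TMM and tested with edgeR 4.0.16 in R 4.3.3 (robust quasi-likelihood F test, treatment as the only term, two-sided, Benjamini-Hochberg over all tested genes). CPM and RPKM used TMM-scaled totals, and log2 CPM a prior count of 2. DESeq2 1.42.0, limma-voom (limma 3.58.1), other scalings, filters, a replicate block, halved counts, a fit without robust estimation and each library left out were alternatives. Named context genes were chosen by role, plus the gene with the largest positive and negative log2 fold change of a list at a mean log2 CPM over 3. Cell type markers are given by list, without naming the extreme genes. Members and lists were chosen with earlier results of these data known. Promoter windows came from RefSeq (GRCm38.p6) and matched 7 of the 8 genes searched for; 8 short motifs and the p53 element were searched on both strands.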

Additional observations from a re-analysis of the deposited data

How the results depend on the processing

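Direction and call were the same in 90 of 104 refits of single genes, and 7 were reversed. Cdkn1a stayed between 2.07 and 2.34 on the log2 scale under every alternative with all 4 libraries, and between 1.30 and 2.81 with a library left out. Lmnb1 stayed between −0.71 and −0.62, and between −0.85 and −0.57 with a library left out. The log2 fold change of Cdkn2c turned to 0.027 with median-of-ratios size factors, 0.056 with at least 10 counts in every library, 0.027 in DESeq2 and 0.011 with counts halved, all within its error. With a library left out it ran from −0.42 to 0.27, Cdkn2a from −1.26 to 0.17 and Glb1 from −0.085 to 0.27.

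The count of genes past an adjusted p of 0.05 was 0 with median-of-ratios factors, library size only, either filter, limma-voom, counts halved or without robust estimation. DESeq2 called 1411 genes, among them 1 of the 8 tested here, Cdkn1a. The replicate block called 144 genes and none of the 8. Same-numbered tumours shared no deviation (r = 0.004 across genes), so the numbers are not taken as pairs. With a library left out, the number of genes called ran from 0 to 8424 and the number of the members called from 0 to 4, highest without TAK-931-2, where Cdkn1c passed the filter through 1 tumour and is among the 4. In those fits the lone tumour is assumed to vary like the other group. Counts of 0 to 4 limit what can be said of Cdkn1c outside TAK-931-1. For Cdkn2b, which had the fewest counts of the 8, halving the counts left the log2 fold change at −0.57 (SE 0.42).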
